A study of Homo sapiens with 12 samples.

Results

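The mRNAs of the cytosolic ribosomal proteins were examined in RNA-seq libraries of 293T cells with and without induction of 4EBP1-4A. Members were the genes whose symbol is RPL or RPS followed by a number, with an optional A, X or L at the end, together with RPLP0, RPLP1, RPLP2 and RPSA, and they came to 81 of the 58735 genes counted. Of these, 77 were core members, 46 of the large and 31 of the small subunit, and 4 were paralogs with a symbol ending in L (RPL3L, RPL10L, RPL39L and RPS27L), which were kept apart. FAU and RACK1, ribosomal proteins named otherwise, fell outside this rule and are given separately.

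The study asked which mRNAs depend on 4EBP1 for their translation, and its RNA-seq arm measured mRNA abundance. 293T is an established human embryonic kidney line, and the 293T4A cells of every library carried a doxycycline-inducible lentiviral construct for 4EBP1-4A, a form of the eIF4E inhibitor 4EBP1 with its phosphorylation sites changed to alanine, and had been sorted on GFP. 3 libraries (DMSO replicates 1 to 3) came from cells given DMSO, and 3 (DOX replicates 1 to 3) from cells given doxycycline at 2 mg/mL for 12 h, with cycloheximide added to all of them at the end. The sources also name other treatment times, and no doxycycline-treated cells without the construct were included, so effects of doxycycline and of 4EBP1-4A cannot be told apart.

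Ribosomal proteins assemble with ribosomal RNA into the small subunit, which decodes the mRNA, and the large subunit, which joins amino acids. Most are needed in equal copy number, and free excess protein is degraded. Their mRNAs are known for a 5′ terminal oligopyrimidine (TOP) tract, a C at the cap followed by a run of pyrimidines, through which mTOR signaling and the 4EBPs act on their translation.

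Reads on genes numbered 51519700 to 57824136 in the DMSO libraries and 47862104, 45887231 and 21687906 in DOX replicates 1, 2 and 3. DOX replicate 3 stood apart, since 88.4% of its reads aligned to more than 1 place. This share was 54.9%, 62.3% and 58.6% in DMSO replicates 1 to 3 and 65.4% and 69.9% in DOX replicates 1 and 2. The groups thus did not overlap in this share, with or without DOX replicate 3, and it cannot be told apart from the treatment in either fit. EIF4EBP1 was at 147 to 160 CPM (reads scaled to a fixed total of reads on genes) in DMSO and at 255 to 313 in DOX. All 7 marker genes of 293T cells were expressed, at 5.69 CPM or more, and of 10 markers of skin, blood and liver only KRT10 exceeded 0.239 CPM, at 2.58 to 5.41.

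The start of the mRNA is shown for members on which the results below turn, because the TOP tract is the feature that their shared regulation is known for. Each line gives 10 bases before and 20 bases from the annotated start, 5′ to 3′ on the strand of the gene, from RefSeq on GRCh38.p14, with the TOP tract in capitals.
RPS19 (chr19:41860245-41860274, plus strand): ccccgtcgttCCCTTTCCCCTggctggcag
RPL35A (chr3:197950180-197950209, plus strand): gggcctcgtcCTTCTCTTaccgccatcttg
RPS23 (chr5:82278335-82278364, minus strand): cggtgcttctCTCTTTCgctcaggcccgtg
RPL3 (chr22:39319604-39319633, minus strand): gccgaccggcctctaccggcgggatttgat
RPL10 (chrX:154398367-154398396, plus strand): ggaggagcgcCTCTTTCCCTTCggtgtggt
RPL10L (chr14:46651762-46651791, minus strand): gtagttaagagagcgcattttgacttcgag
RPS27 (chr1:153990752-153990781, plus strand): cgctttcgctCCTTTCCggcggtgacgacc
RPS27L (chr15:63157458-63157487, minus strand): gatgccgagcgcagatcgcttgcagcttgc

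RPS19, the member with the highest fold change, and RPL35A and RPS23, among the lowest, all had the tract, while RPL3 did not at this start. Of other members at the ends of the fold changes, RPS27A and RPL7A also had the tract, and RPL15 and RPS28 did not. RPL10 and RPS27 had it and their paralogs RPL10L and RPS27L did not. A C at the first base followed by at least 4 pyrimidines, searched on the mRNA strand only, was found at the start of 46 of the 60 core members with a start sequence (76.7%), against 4.07% of all 35116 promoters in the table. The median log2 fold change in RNA-seq was −0.12 for the 46 core members with the motif and −0.18 for the 14 without it, a difference that was lost without DOX replicate 3 (−0.063 and −0.061). A different annotated start would change the match, and no match says only that these letters were not at this position.

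The share of all reads on genes taken by the ribosomal protein pool overlapped between the groups, while its share of the scaled library sizes did not. Members held 2.76%, 2.68% and 2.74% of the reads on genes in DMSO replicates 1 to 3 and 2.70%, 2.77% and 2.74% in DOX replicates 1 to 3. The groups overlapped, with means of 2.73% ± 0.042 in DMSO and 2.74% ± 0.033 in DOX (SD, n = 3). This share depended on the denominator. Mitochondrially encoded genes took 15.3% ± 0.86 of the reads in DMSO and 10.4% ± 4.1 in DOX (SD, n = 3). Of the reads on all other genes, members held 3.22% ± 0.081 and 3.06% ± 0.13, and of library sizes scaled with TMM factors (trimmed mean of M-values), 2.87% ± 0.081 and 2.61% ± 0.24 (SD, n = 3). On this last scale, the one used for the fold changes, the shares were 2.93%, 2.77% and 2.90% in DMSO and 2.75%, 2.75% and 2.34% in DOX, and the groups did not overlap.

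Within the pool, the summed small-subunit reads weighed more against the summed large-subunit reads after doxycycline, by an amount that rested largely on RPS19. The ratio of small-subunit to large-subunit reads was 0.649, 0.656 and 0.648 in DMSO and 0.662, 0.682 and 0.713 in DOX, so the groups did not overlap. With RPS19 left out, the ratio was 0.592, 0.591 and 0.590 in DMSO and 0.592, 0.605 and 0.573 in DOX. The means were then 0.591 ± 0.0011 and 0.590 ± 0.016 (SD, n = 3), but DOX replicates 1 and 2 still lay above every DMSO library, and only DOX replicate 3 lay below, so that the log2 ratio of the means was 0.019 without it. The ratio of the median reads of each subunit was 0.574, 0.576 and 0.593 in DMSO and 0.575, 0.583 and 0.718 in DOX. These groups overlapped, and the log2 ratio was −0.0040 without DOX replicate 3.

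**Figure D1:**
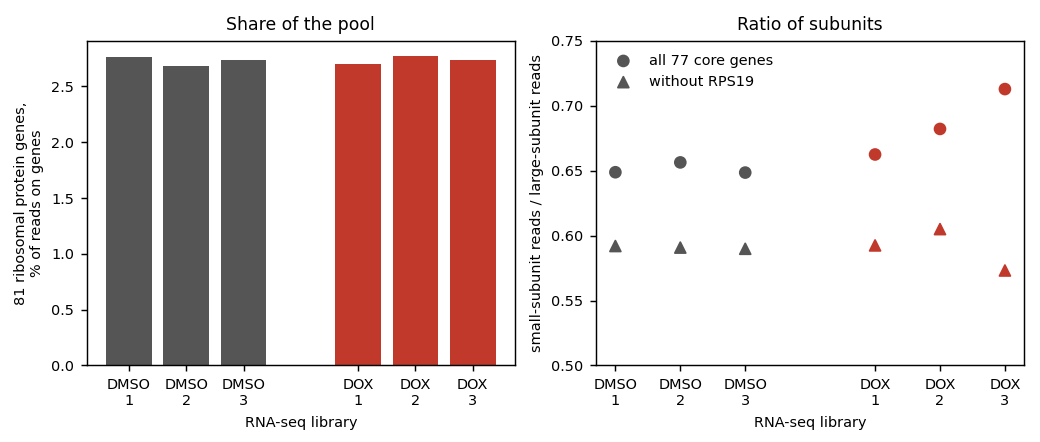
Left, the share of reads on genes held by the 81 ribosomal protein genes (%, bars) in each RNA-seq library, and right, the ratio of small-subunit to large-subunit reads with all 77 core genes (circles) and without RPS19 (triangles), on an axis that starts at 0.5; DMSO is grey and DOX red. The shares lie between 2.68% and 2.77% in all 6 libraries, and the circles are higher in DOX while the triangles overlap.

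No ribosomal protein gene passed the test in the comparison of 3 DOX with 3 DMSO libraries, and none of the 20552 genes tested did (0% called in each direction, edgeR quasi-likelihood test, Benjamini-Hochberg adjusted p under 0.05). At an unadjusted p under 0.05, 1969 genes were higher and 848 lower (9.58% and 4.13%), and of the core members 1 was higher and 0 lower. DESeq2 called 0 core members. Of the 81 members 80 were tested, and RPL10L had too few reads. The core members leaned to lower values, 65 below 0 and 12 above against 53.7% of all genes below 0, with a median log2 fold change of −0.16 against −0.035 for all genes and a range of −0.55 to 0.46. Scaled by library totals instead, the split was 43 below and 34 above, and the medians were −0.028 and 0.097, so the gap between core members and all genes was −0.13 with TMM factors and −0.12 with library totals. The values of the groups did not overlap for 6 core members that were higher in DOX and 32 that were lower, where 17.7% and 20.8% of all genes did not overlap in these directions.

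Without DOX replicate 3, 5 core members were called. The same test on 3 DMSO and 2 DOX libraries called 696 genes higher (3.4%) and 825 lower (4.03%) of 20459, and among them RPS19 was higher and RPL30, RPL15, RPS23 and RPL35A were lower. These 4 lower calls ended when the libraries were scaled by their totals, with edgeR adjusted p from 0.0525 for RPL30 to 0.103 for RPL35A. That fit called 2 core members higher, RPS19 among them, and 0 lower (7.05% and 1.66% of all genes). The core median was −0.072 against −0.0099 for all genes, and 61 core members were below 0 and 16 above (51.6% and 48.4% of all genes). At an unadjusted p under 0.05, 2 core members were higher and 20 lower, against 11.9% and 13.9% of all genes. The study calls its replicates biological but the labels do not say that they were separate cultures, and the p-values measure only the spread between these libraries.

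**Figure D2:**
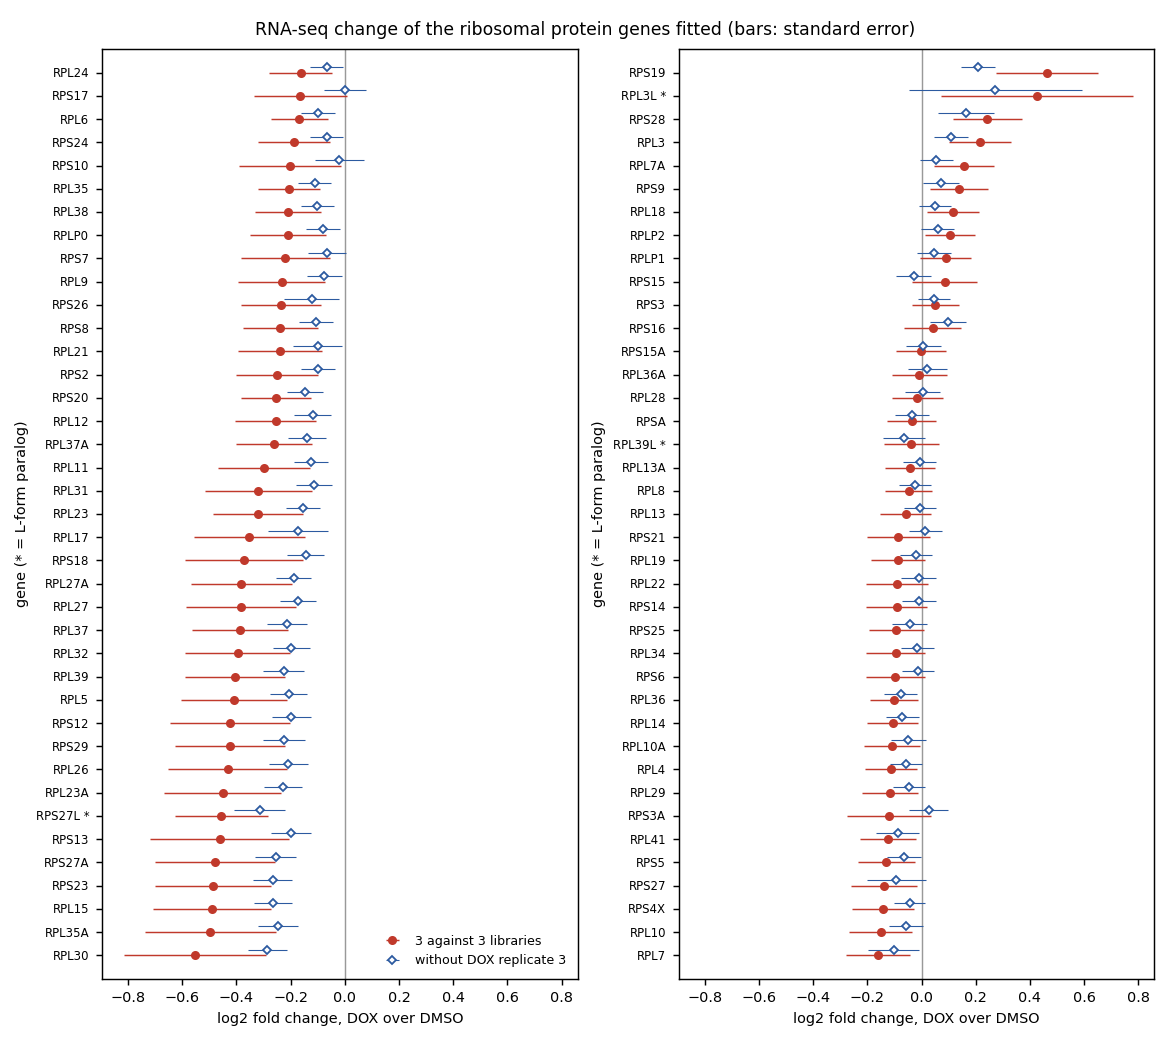
Log2 fold change of DOX over DMSO in RNA-seq for 78 of the 80 ribosomal protein genes tested, with standard errors, from 3 against 3 libraries (red circles) and without DOX replicate 3 (blue diamonds); genes are ordered by the red value and an asterisk marks L-form paralogs. The values run from −0.55 for RPL30 to 0.46 for RPS19, and most blue values lie nearer to 0.

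RPS19, a small-subunit protein needed for the maturation of the small-subunit ribosomal RNA, had the highest fold change of the core members. The gene lies at chr19:41860255-41872925 (GRCh38, plus strand). Its TMM-scaled CPM were 1007, 1097 and 1030 in DMSO and 1158, 1257 and 1907 in DOX. Every DOX library was above every DMSO library, and DOX replicate 3 was far above the other DOX libraries. The log2 fold change was 0.46 ± 0.19 (SE, edgeR adjusted p = 0.326) over 6 libraries and 0.21 ± 0.062 (SE, edgeR adjusted p = 0.0497) without DOX replicate 3. RPS19 took 3.65% ± 0.27 of the pool in DMSO and 5.64% ± 2.2 in DOX (SD, n = 3), and 8.14% in DOX replicate 3.

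Of the 5 lowest core members, 3 belonged to the large subunit. RPL30, a large-subunit protein that binds kink-turn RNA, had 367, 308 and 342 TMM-scaled CPM in DMSO and 288, 268 and 136 in DOX. DOX was below DMSO in every library, most of all in replicate 3. Its log2 fold change was −0.55 ± 0.26 (SE, edgeR adjusted p = 0.326), and −0.29 ± 0.073 (SE, edgeR adjusted p = 0.0282) without that library.

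RPL35A, a large-subunit protein whose gene is mutated in some patients with Diamond-Blackfan anemia, had 432, 363 and 404 TMM-scaled CPM in DMSO and 352, 322 and 176 in DOX. RPL15, a large-subunit protein, had 496, 444 and 484 in DMSO and 419, 373 and 222 in DOX. Neither gene's groups overlapped. Without DOX replicate 3 the log2 fold changes were −0.25 ± 0.073 for RPL35A (SE, edgeR adjusted p = 0.0466) and −0.26 ± 0.069 for RPL15 (SE, edgeR adjusted p = 0.0315).

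On the small subunit, RPS23, which lies at the decoding center, and RPS27A, made as a fusion with ubiquitin, had the lowest values. RPS23 had 261, 225 and 251 TMM-scaled CPM in DMSO and 214, 195 and 117 in DOX, and RPS27A had 199, 170 and 187 in DMSO and 168, 143 and 87.9 in DOX. The groups did not overlap for either gene. Without DOX replicate 3 the log2 fold change of RPS23 was −0.27 ± 0.072 (SE, edgeR adjusted p = 0.0347) and that of RPS27A −0.26 ± 0.077 (SE, edgeR adjusted p = 0.0502), just outside the threshold. In GENCODE release 44, RPL30, RPS23 and RPS27A each share exon sequence with an antisense gene, and 23 members in all overlap exons of another gene. The counts rest on another annotation (GRCh37), in which these overlaps were not checked. The counts kept ambiguous reads apart, 0.419% to 2.05% of all reads in a library. Reads of these members may have been left out in this way only where the overlap was also annotated in the counting. For antisense partners this also needs counting that ignored strand.

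Other high values belonged to RPS28, RPL3 and RPL7A, and none of them was called in either fit. RPL3, near the peptidyl transferase center, had 760, 821 and 819 TMM-scaled CPM in DMSO and 837, 891 and 1056 in DOX. The groups of RPL3 did not overlap, while those of RPL7A did. The log2 fold changes over 6 libraries were 0.24 for RPS28, 0.21 for RPL3 and 0.16 for RPL7A.

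Stoichiometry is the share of each member in the reads of all members, and a difference passed the test only for RPS19 and RPL30, without DOX replicate 3. The same test with the summed member reads as the library size called 0 core members over 6 libraries (0% of all genes), with 4 core members higher and 0 lower at an unadjusted p under 0.05 (15.1% and 2.38% of all genes). The shares of all genes given beside the members in this test carry an offset, because the members themselves set the scale. The median log2 change was 0.092 for all genes and −0.032 for the core members. By sign, 34 core members were above 0 and 43 below, and 59.1% and 40.9% of all genes were. This split depended on the reference, and was 40 above and 37 below with a pool without the 5 members with most reads, and 41 and 36 with the geometric mean of the core members. Without DOX replicate 3, RPS19 was higher with a log2 change of its share of 0.27 (edgeR adjusted p = 0.0168) and RPL30 lower with −0.22 (edgeR adjusted p = 0.0499), while 6.75% and 1.84% of all genes were called in these directions. At an unadjusted p under 0.05, 4 core members were then higher and 10 lower, against 17.5% and 6.98% of all genes, and 34 were above and 43 below 0, against 59.1% and 40.9%. Over 6 libraries the groups did not overlap for 13 core members higher and 19 lower, against 23.7% and 12.7% of all genes. Leaving out DOX replicate 3, these were 16 and 19, against 26.6% and 14.5%.

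Among members without overlap, large differences in share were those of RPS19, RPS28, RPL3 and RPLP2 upward and of RPL30, RPL35A, RPL15, RPS23 and RPS27A downward. RPLP2, a protein of the stalk that recruits elongation factors, held 1.40% ± 0.024 of the pool in DMSO and 1.67% ± 0.25 in DOX (SD, n = 3). RPL30 held 1.18% ± 0.072 in DMSO and 0.868% ± 0.25 in DOX (SD, n = 3). The 10 members with most reads held 34.9% ± 0.77 of the pool in DMSO and 38.8% ± 3.9 in DOX (SD, n = 3), and 43.2% in DOX replicate 3.

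**Figure D3:**
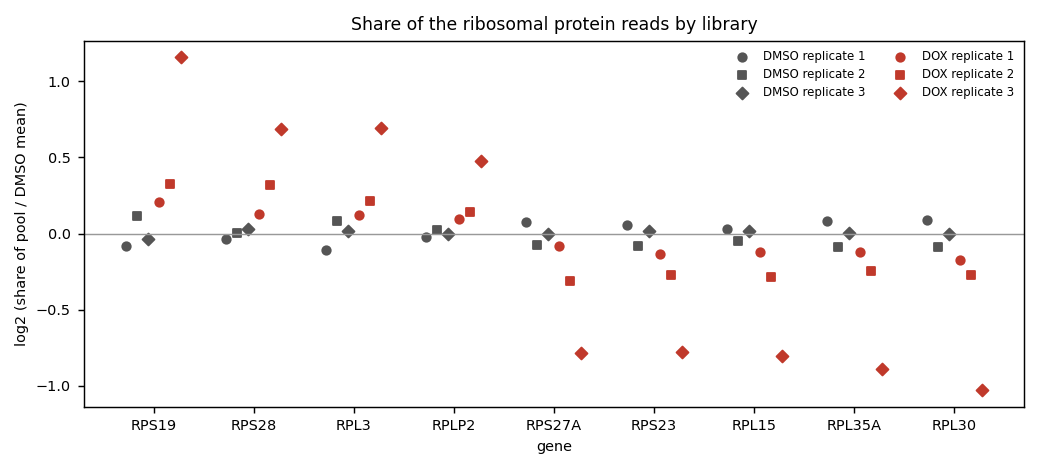
Log2 of each gene's share of the ribosomal protein reads over its DMSO mean, per library, for 9 core members with a large rise or fall of the share among those without overlap; grey is DMSO, red is DOX, and circles, squares and diamonds are replicates 1, 2 and 3. DOX replicate 3 lies farthest from 0 for these genes, as for RPS19 with 8.14% of the pool.

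The composition of the pool in DOX replicate 3 differed from that of all other libraries. The SD of the log2 ratio of shares over the core members was 0.062 to 0.113 between DMSO libraries and 0.090 between DOX replicates 1 and 2. It was 0.054 to 0.189 between DMSO libraries and these DOX replicates, and 0.324 to 0.494 between DOX replicate 3 and the rest. GC content moved with the changes. Across genes, which are not independent replicates, Spearman's rho of log2 fold change and transcript GC was 0.67 over 20396 genes and 0.48 over the 77 core members, and 0.54 and 0.44 without DOX replicate 3.

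The 38 core members of lower GC had a median log2 fold change of −0.25 and the 39 of higher GC −0.11, against −0.26 and 0.17 for all genes split at the same GC. With offsets corrected for GC in each library, the core median was −0.15 against −0.0056 for all genes, RPS19 was at 0.29 and RPL30 at −0.44. The trend over the core members then turned, with a rho of −0.29 and medians of −0.068 for lower and −0.18 for higher GC. Leaving out DOX replicate 3, the corrected fit called 7 core members lower, among them RPL23A, RPL30, RPL35, RPL36, RPL8 and RPS2, and 0 higher (1.84% and 1.95% of all genes). RPS19, RPL15, RPS23 and RPL35A were no longer called. The part of GC content and of the share of reads with several alignments in these results was not tested further.

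**Figure D4:**
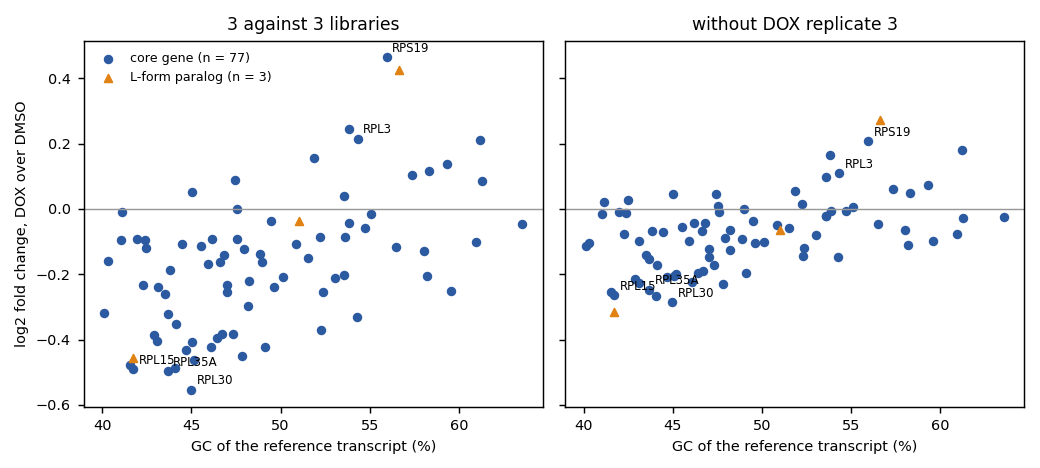
Log2 fold change of DOX over DMSO against the GC content of the reference transcript (%) for 77 core genes (circles) and 3 L-form paralogs (triangles), with 3 against 3 libraries on the left and without DOX replicate 3 on the right. Genes of higher GC lie higher, with a rho of 0.48 on the left and 0.44 on the right over the core genes.

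By role, the 2 proteins of the 5S ribonucleoprotein particle, RPL5 and RPL11, which bind MDM2 when free, were both below 0, with log2 fold changes of −0.41 and −0.30. The 4 stalk proteins had a median of −0.061, with 2 above and 2 below 0. The 5 proteins near the peptidyl transferase center or the exit tunnel had a median of −0.15 and the 5 at the decoding center or mRNA channel −0.036. Of the 9 genes listed here for Diamond-Blackfan anemia, which need not be all that are linked to it, 8 were below 0 and RPS19 was above. Their median was −0.22, and 65 of all 77 core members were below 0. The 4 X-linked members had a median of −0.15. The medians were −0.14 for 31 small-subunit and −0.16 for 46 large-subunit members, beside −0.035 for all genes. These medians rested in good part on DOX replicate 3, without which they were −0.017 for the stalk, −0.17 for the 5S particle, −0.059 near the peptidyl transferase center, −0.067 for the Diamond-Blackfan genes, −0.051 for the X-linked genes, −0.044 for the small and −0.084 for the large subunit, beside −0.0099 for all genes. At the decoding center or mRNA channel the median remained at −0.036.

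Levels differed widely between the core members. In RPKM in DMSO, the CPM by library totals divided by the length of the reference transcript in kb, the core median was 317, and among the highest levels were 1084 ± 14 for RPL19, 1039 ± 2.4 for RPS4X, 1032 ± 34 for RPL18 and 1021 ± 35 for RPL8 (SD, n = 3). The levels of RPS4X, RPL18 and RPL8 lay within the SD of RPL18 and could not be put in order. The lowest levels were 4.89 for RPS28, 6.84 for RPS26, 7.61 for RPL7, 15.4 for RPS27 and 17.6 for RPS10.

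Only uniquely aligned reads were counted, and many members have processed copies elsewhere in the genome. Of the 50-base windows of a core transcript, a median of 30.6% had an exact copy in a transcript of another gene, with a range of 0.242% to 96.6%. The median level was 317 RPKM for 21 core members with less than 10% copied, 358 for 33 with 10% to 50%, and 159 for 23 with more. With the length of the shortest transcript, these medians were 634, 459 and 159 RPKM. RPS10 was 94.1% copied, RPS27 68.0% and RPL7 58.8%, so their low levels cannot be told apart from reads lost to copies. RPS28 was 35.5% copied and RPS26 30.6%, and copies with mismatches were not searched. When only windows without a copy counted, RPL7, RPS26 and RPS28 were still the lowest, with RPS28 at 7.88 RPKM. The part of lost reads in their low levels was not tested. The order of levels also moved with the length used, since RPS19 was highest with the shortest transcript (1892 RPKM) and RPL9 when only windows without a copy counted (1643 RPKM).

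**Figure D5:**
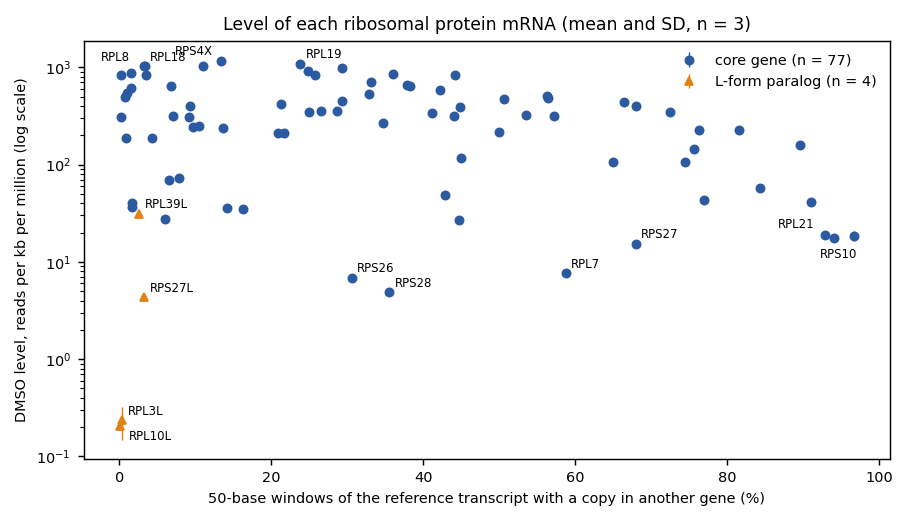
Mean level in DMSO (RPKM, log scale, bars are SD, n = 3) against the share of 50-base transcript windows with an exact copy in another gene (%), for 77 core genes (circles) and 4 L-form paralogs (triangles). RPL19 at 1084 is among the highest and RPS28 at 4.89 is the lowest core level, and the L forms have few copied windows.

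The L-form paralogs contributed little to the pool. They held 0.183% ± 0.0073 of it in DMSO and 0.171% ± 0.0085 in DOX (SD, n = 3). RPS27L, a paralog of RPS27 known as a p53 target, had 84.4%, 82.2% and 82.6% of the reads of its pair in DMSO and 81.7%, 79.9% and 77.0% in DOX. All DOX values were below all DMSO values (exact permutation test, two-sided, p = 0.1, the smallest that 3 against 3 allows). Per kb its share was 22.1% ± 1.4 and 18.4% ± 2.1 (SD, n = 3), and RPS27 itself is largely copied elsewhere. The log2 fold change of RPS27L was −0.46 ± 0.17 (SE, edgeR adjusted p = 0.326) over 6 libraries. Without DOX replicate 3 it was −0.31 ± 0.095 (SE, edgeR adjusted p = 0.0504), just outside the threshold. RPS27 was at −0.14 and −0.092 in these fits.

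RPL39L, a paralog of the exit-tunnel protein RPL39, had 8.13% ± 0.48 of the reads of its pair in DMSO and 10.6% ± 2.8 in DOX (SD, n = 3, exact permutation test, two-sided, p = 0.2). The DOX libraries were at 8.44%, 9.61% and 13.9%, and the mean of the first pair was 9.03%. RPL3L, the striated muscle paralog of RPL3, had 20 to 41 reads in each library and 0.0668% and 0.0779% of its pair (exact permutation test, two-sided, p = 0.7). RPL10L, expressed mainly in testis, had 1 to 11 reads in each library and was not tested.

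Among ribosomal proteins outside the symbol rule and other TOP mRNAs, 0 genes were called over 6 libraries and 3 were called lower without DOX replicate 3, where 4.03% of all genes were. FAU and RACK1 had log2 fold changes of −0.046 and −0.077, and neither was called in either fit. Of 15 other TOP mRNAs tested, 13 were below 0 with a median of −0.34 and 0 were called. In the fit without DOX replicate 3 the median was −0.13, with 12 below 0 and 3 above, and EEF1A1, the elongation factor that brings aminoacyl-tRNA to the ribosome, was called at −0.23 ± 0.067 (SE, edgeR adjusted p = 0.0464). Of 4 further paralogs tested, RPL36AL and RPL22L1 were called without that library, at −0.35 ± 0.090 (SE, edgeR adjusted p = 0.0291) and −0.31 ± 0.085 (SE, edgeR adjusted p = 0.0371). In the same 5 libraries, library totals left a call for RPL36AL only of these 3 genes, and GC-corrected offsets for none of them.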

How the data were processed

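The 6 RNA-seq libraries (3 DMSO, 3 DOX) were used, grouped by the sample labels. Values were the raw counts per gene deposited by the authors, not normalized; they used STAR for alignment, and reads with several alignments were not assigned to genes. Reads on genes were 5.94% to 30.8% of all reads. The submitters' processing notes name GRCh37, and whether counting used the strand is not given in the sources used here. Gene symbols came from the other deposited table, whose values were not used. The 186 rows without a gene name, ERCC spike-ins included, stayed out of library sizes and tests.

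A gene was tested if 3 or more libraries had 10 or more reads, with edgeR 4.0.16 (quasi-likelihood F-test, TMM factors, R 4.3.3), with Benjamini-Hochberg adjustment over all genes tested at 0.05. For stoichiometry, the library size was the summed reads of the members. DESeq2 1.42.0 was an alternative. Lengths, GC, exon overlaps and copied windows came from GENCODE release 44 on GRCh38, matched by gene ID. Python 3.11.15, numpy 2.4.6, pandas 2.3.3, scipy 1.17.1 and matplotlib 3.10.9 were used.

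The members and lists were chosen with earlier results of these data known. Named genes were the L forms and their partners, the 5 core members at each end of the fold changes (with at least 100 reads in every library), of the levels in DMSO, and of the changes in share without overlap, any member called, FAU and RACK1, and up to 3 genes called from the other lists. Some genes that this rule takes are not reported here. Alternatives were other scalings, filters and references, a replicate block, leaving out each library, and, chosen after seeing the data, GC-corrected offsets, TMM factors computed after the filter, other transcript lengths, the ratio without RPS19, and DESeq2 and library totals without DOX replicate 3.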

Additional observations from a re-analysis of the deposited data

How the results depend on the processing

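Most calls depended on DOX replicate 3. Over all genes, 0 to 696 were called higher and 0 to 825 lower when 1 library was left out, 0 to 1 and 0 to 4 of the core members, and in stoichiometry 0 to 1382 and 0 to 377 genes, 0 to 1 and 0 to 1 core members; the counts above 0 came from leaving out DOX replicate 3. Over 6 libraries DESeq2 called 1 gene higher and 2 lower. Without DOX replicate 3, DESeq2 called 996 higher and 1054 lower (core members 1 and 7), library totals 1442 and 339 (2 and 0), TMM factors after the filter 769 and 673 (1 and 3) and GC-corrected offsets 395 and 374 (0 and 7). The core median was then −0.0058 with library totals. The median change in share was 0.011 with a pool without the 5 members with most reads and 0.019 with the geometric mean as reference. The log2 ratio of the summed share was −0.076 without mitochondrially encoded genes and −0.13 with TMM-scaled sizes, and the log2 subunit ratio without RPS19 was −0.0016. The median level was 85.6 RPKM with merged exons, 397 with the shortest transcript and 588 with uncopied windows.

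Some small fold changes turned sign. With library totals these were RPL39L (0.11), RPL19 (0.051), RPL8 (0.096), FAU (0.10) and RACK1 (0.063), and, also without DOX replicate 3, RPL10 (0.0081), RPL39L (0.0019), RPL19 (0.046), RPS4X (0.022), RPL8 (0.040), RPS10 (0.045), FAU (0.015) and RACK1 (0.046). With GC-corrected offsets they were RPL18 (−0.10), RPL7 (0.15) and RPLP2 (−0.089), and without DOX replicate 3 RPL18 (−0.068), RPL7 (0.026) and RPLP2 (−0.047). RPL39L was at 0.0018 with DESeq2 and 0.0053 with TMM factors after the filter. The change in share turned sign for RPL10 (0.031 with the geometric mean, 0.023 with the smaller pool) and RPS27 (0.042 and 0.035). Leaving out 1 library gave −0.051 to 0.0036 for RPL10, −0.0022 to 0.15 for RPL39L and −0.034 to 0.034 for RPS27. The cause was not tested.

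Whether the replicate numbers pair the samples could not be decided. Deviations from the group mean in same-numbered libraries correlated at 0.457, −0.444 and 0.027. DOX replicate 3 weighs on the mean of its group, and DOX replicates 1 and 2 went together. They correlated at 0.457 and 0.484 with DMSO replicate 1 and at −0.533 and −0.444 with DMSO replicate 2. With the replicate block, 0 genes were called, the core median was −0.17, and 1 core member was higher and 10 lower at an unadjusted p under 0.05. Not every library correlated best with its own number.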

Other observations

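Of 6 chaperones and loading factors of newly made ribosomal proteins (TSR2, HEATR3, GRWD1, BCCIP, PDCD2 and LTV1), 3 were above and 3 below 0, with a median log2 fold change of 0.024, and 0 were called in either fit. When DOX replicate 3 was left out, the split was 4 above and 2 below with a median of 0.075, beside −0.0099 for all genes, and with library totals over 6 libraries 4 and 2 with 0.16, beside 0.097 for all genes. Of 1588 ribosomal protein pseudogenes 261 were tested, 124 above and 137 below 0 with a median of −0.015 and 0 called. In the fit without DOX replicate 3, 142 were above and 114 below 0, with a median of 0.025 and 1 called higher (3.4% of all genes). Their reads came to 1.21% to 1.54% of the reads on members in the 6 libraries.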
